A study of Mus musculus with 22 samples.

Results

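The cell cycle genes described here are 40 genes, of 55376 counted per library, chosen by name from a list of well-known proliferation genes and cell cycle regulators. They fall into 4 classes by role: 16 genes of DNA replication and its onset, 19 genes of mitosis, 3 D cyclins and 2 inhibitors of cyclin-dependent kinases. RNA was sequenced from cells sorted out of mouse embryos at embryonic day 12.5 (E12.5). At that stage motor neurons of the spinal cord are being connected while vessels grow into the cord. Motor neurons were sorted by a green ISL1 reporter (ISL1 is a transcription factor of motor neurons and of some sensory neurons), and endothelial cells, which line vessels, by a red Cherry reporter of Kdr, a VEGF receptor. For the knockout series, spinal cord and meninges were dissociated together and both cell types sorted from wild-type embryos and from embryos knocked out for Plxnd1, which encodes a semaphorin receptor of vessels and neurons. Usable libraries numbered 2 for wild-type endothelial cells and 3 each for knockout endothelial cells, wild-type motor neurons and knockout motor neurons. In the regional series all embryos were wild type, and endothelial cells were taken either from inside the cord (spinal, 5 libraries) or from the meninges around it (meningeal, 5 libraries). Spinal batches 1 to 3 came from ventral cord and batches 4 and 5 from whole cord. Embryos were pooled by genotype before sorting and the number in a pool is not given, so the p-values below measure the spread between these libraries.

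A cell that divides passes through G1, copies its DNA in S phase, and separates the copies in mitosis. D cyclins with Cdk4 and Cdk6 release E2F factors in G1. E2F factors and cyclin E then start the replication genes, which build the MCM helicase (Mcm2 to Mcm7), load it (Cdc6, Cdt1), complete its active form (Gins2), hold the polymerase on DNA (Pcna) and make nucleotides (Rrm1, Rrm2, Tyms). Mitotic genes are made later, under a repressor and activator complex that reads an element called CHR, and include the cyclins A2, B1 and B2, Cdk1, the Aurora and Polo kinases, spindle motors and the destruction machinery that ends mitosis. p21 (Cdkn1a) and p27 (Cdkn1b) hold cyclin-dependent kinases inactive. Motor neurons are postmitotic once they express ISL1, whereas embryonic endothelial cells divide as vessels grow.

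The promoters of the 2 large classes held these elements at different shares, and 30 bases around 1 match are shown for 4 mitosis and 3 replication genes because the classes differ in the results below. Promoter windows of RefSeq (build GRCm38.p6, 250 bases before to 50 bases after each gene's start) were matched for 31 of the 40 genes. Capitals mark the matched letters, CHR in the first 4 sequences (TTTGAA or TTCGAA, on either strand) and an E2F-type site in the last 3 (TTTCGCGC, TTTGGCGC, TTTCCCGC or TTCCCGCC, on either strand, of which the last 2 can overlap). Every sequence is written 5′ to 3′ on the strand of its gene and lies upstream of its RefSeq start. The gene start in the annotation used for counting is 26 bases away for Cdk1, 31 for Ube2c and 9 for Cdc20. It falls inside the stretches of these genes.
Mki67: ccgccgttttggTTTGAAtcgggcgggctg
Cdk1: ctttaccgcggcgagTTTGAAactgctggc
Ube2c: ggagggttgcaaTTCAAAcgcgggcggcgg
Cdc20: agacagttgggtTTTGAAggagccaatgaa
Mcm5: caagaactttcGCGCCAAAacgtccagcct
Mcm6: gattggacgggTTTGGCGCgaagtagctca
Rrm1: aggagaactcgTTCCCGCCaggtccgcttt
The Mki67 stretch is at chr7:135716460-135716489 (minus strand), the Cdk1 stretch at chr10:69352913-69352942 (minus strand) and the Ube2c stretch at chr2:164769888-164769917 (plus strand). The Cdc20 stretch is at chr4:118437344-118437373 (minus strand), the Mcm5 stretch at chr8:75109349-75109378 (plus strand), the Mcm6 stretch at chr1:128359734-128359763 (minus strand) and the Rrm1 stretch at chr7:102441617-102441646 (plus strand). A CHR match was found in 12 of 15 mitosis windows (80%) and 2 of 13 replication windows (15.4%), against 18.4% of the windows of all 20743 genes. An E2F-type match was found in 7 of 13 replication windows (53.8%) and 1 of 15 mitosis windows (6.67%), against 4.27% of all windows. A CCAAT box (CCAAT, either strand) lay in 13 mitosis and 8 replication windows, against 38.3% of all windows. The 1 matched D cyclin window held none of these motifs, and the 2 inhibitor windows held a CCAAT box in 1 case. Among cell cycle genes outside the 40, CHR was found in 23 of 32 other mitosis windows (71.9%) and E2F-type sites in 10 of 25 other replication windows (40%). A match describes the letters and is neither a shown binding site nor a cause.

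One file, labelled wild-type endothelial batch 2, repeated the knockout endothelial batch 1 file exactly (0 of 55376 genes differed) and was left out, which leaves 21 of 22 libraries. Totals ran from 20680902 to 27035395 counts for the 11 knockout-series libraries and from 15685784 to 21493255 for the 10 regional ones, and the member with the fewest reads, Cdc6, still had 26 counts in its lowest library. Levels are given as CPM, counts scaled by edgeR to a common library size with TMM factors, separately for each series. Plxnd1 stood at 175 to 213 CPM in wild-type and 15.4 to 28.9 CPM in knockout endothelial libraries. In the 10 endothelial markers, all detected, the sum was 508 to 1127 CPM in endothelial libraries of the knockout series, 860 to 1781 CPM in meningeal and 1625 to 3610 CPM in spinal libraries. The 7 mesenchyme markers, all detected, summed to 8630 to 10383 CPM in endothelial libraries of the knockout series and 8697 to 11618 CPM in meningeal libraries, above the endothelial markers, and to 729 to 1380 CPM in spinal libraries. The share of any value below that comes from the labelled cell type was not measured. In knockout motor neuron batch 1 the 6 liver markers summed to 733 CPM, against 0.655 to 2.06 CPM in the other motor neuron libraries. Motor neuron libraries carried 2.20% of the endothelial marker sum of endothelial libraries (wild type).

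Summed over a class, the cell cycle genes separated the cell types. The 16 replication genes summed to 1410 ± 70.1 CPM (SD, n = 2) in wild-type endothelial libraries and to 332 ± 29.7 CPM (n = 3) in wild-type motor neuron libraries, which is 23.5% of the endothelial sum. The 19 mitosis genes summed to 1908 ± 314 CPM and 151 ± 58.2 CPM, or 7.90%. The 3 D cyclins summed to 432 ± 14.4 CPM and 46.6 ± 11.8 CPM, or 10.8%. The 2 inhibitors summed to 140 ± 14.2 CPM and 111 ± 2.99 CPM, or 79.2%, so the classes did not stand in 1 ratio. Mitosis over replication sums, compared only between groups of 1 series since the classes differ in gene length, were 1.24 to 1.46 in wild-type endothelial and 0.314 to 0.591 in wild-type motor neuron libraries. The same ratio was 1.55 to 1.79 in spinal and 1.28 to 1.72 in meningeal libraries, and those groups overlap. In these bulk samples, fewer dividing cells and less RNA per cell cannot be told apart.

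**Figure D1:**
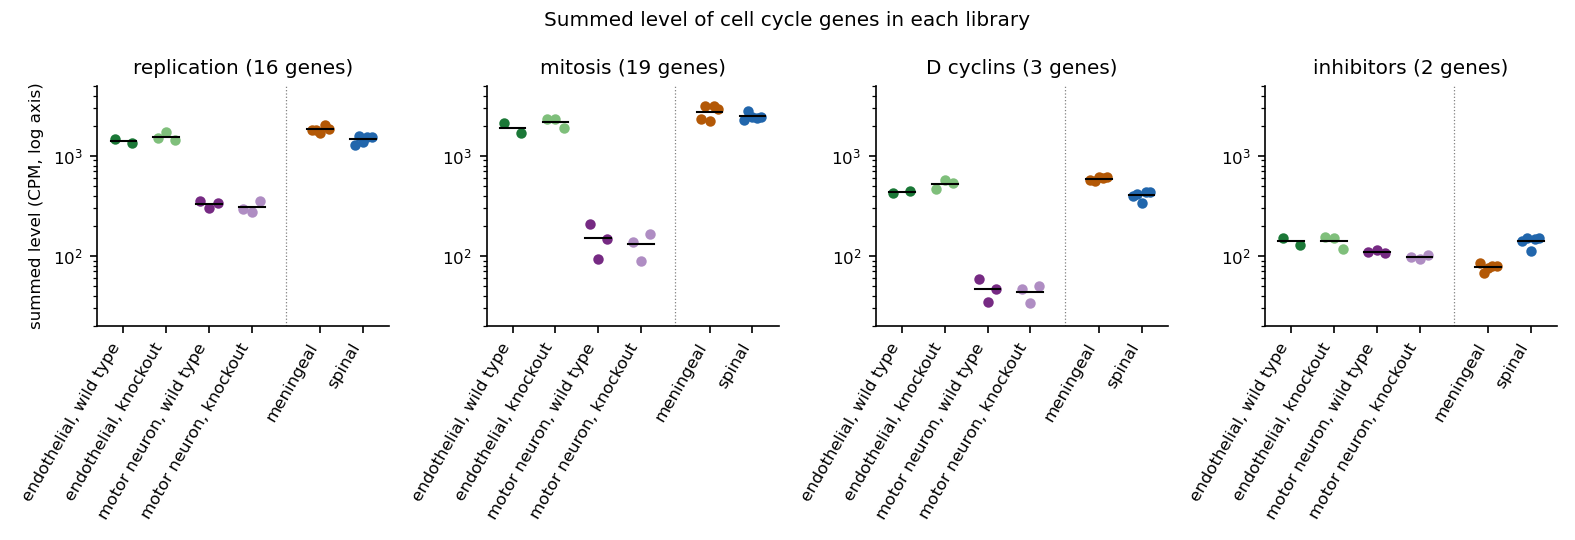
Summed level of each class (CPM, log axis) in every library, 1 point per library and a bar at the group mean; a dotted line parts the knockout series from the regional libraries, whose reads were counted with other settings. Motor neuron libraries lie below all endothelial libraries for replication, mitosis and D cyclins. Inhibitor sums run from 92.4 to 114 CPM in motor neuron, 113 to 152 CPM in spinal and 67.3 to 85.9 CPM in meningeal libraries.

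Levels were divided by exon length for an approximate comparison between genes. The length covers all annotated exons of a gene. Reads shared with pseudogenes or with genes on the other strand were not corrected for, so the order of genes may shift. In wild-type endothelial libraries the highest mitosis gene per kilobase was Top2a, the topoisomerase that untangles sister chromosomes, at 65.4 CPM per kb (range 56.8 to 73.9), followed by Cdc20, an activator of the anaphase-promoting complex, at 46.5 (43.0 to 50.0). Among replication genes the helicase subunit Mcm6 (50.1 CPM per kb, 47.5 to 52.8) and Pcna (47.6, 43.8 to 51.3) overlapped in range, and Cdc6 was lowest at 5.14. Ccnd3 was the highest D cyclin at 53.1 CPM per kb, above Ccnd1 at 32.9 and Ccnd2 at 26.6, with no overlap between the libraries of any of the 3. In wild-type motor neuron libraries the order was another one. Cdkn1b, at 21.9 CPM per kb (21.86 to 22.03), and Mcm7, at 20.7 (19.9 to 21.3), stood first of all 40 genes, and Mcm7 was the only MCM subunit above 10 CPM per kb, the others ranging from Mcm4 at 9.85 down to Mcm3 at 2.40. The highest mitosis gene there was again Top2a, at 4.76 CPM per kb (2.61 to 6.93).

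Motor neurons were compared with endothelial cells to see how far the proliferation genes part the sorted populations, first in wild-type and then in knockout embryos. In wild-type embryos 38 of the 40 genes were lower in motor neurons by edgeR's quasi-likelihood test at an adjusted p under 0.05 and none was higher, against 33.8% of all 19266 genes tested that were lower. All 16 replication genes (median log2 fold change −2.22), all 19 mitosis genes (−3.69) and all 3 D cyclins (−3.51) were called, while the median of all genes was −0.02. In 39 of the 40 genes every motor neuron library lay below every endothelial library, which was the case for 40.6% of all genes. In knockout embryos 39 of the 40 were lower (35.3% of all genes), again including every replication (−2.44), mitosis (−4.03) and D cyclin gene (−3.72), and 39 did not overlap (37.2% of all genes). The knockout comparison used libraries that the wild-type comparison did not, though both came from 1 fit that shares the estimate of spread.

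Within the replication class the MCM subunits, which work as 1 ring of 6 proteins, differed widely. Mcm3 was at 133 and 122 CPM in the wild-type endothelial batches 1 and 3 and at 10.6, 3.55 and 7.70 CPM in motor neuron batches 1 to 3. That is a log2 fold change of −4.12 ± 0.36 (SE, adjusted p = 3.55e-06), the lowest of the class. Mcm7 was at 79.7 and 85.6 CPM in endothelial and at 63.1, 58.9 and 62.0 CPM in motor neuron libraries, and its groups also did not overlap. Its log2 fold change of −0.43 ± 0.11 (adjusted p = 0.00476) was the smallest called among the 40 genes, and in knockout embryos it was −0.69 ± 0.10 (adjusted p = 9.15e-05). The other subunits lay between, with Mcm2 at −2.03, Mcm4 at −2.10, Mcm5 at −2.46 and Mcm6 at −3.01. Some 13.0% of the exon bases of Mcm7 lie opposite to exons of Cops6 and Ap4m1, and the knockout series was counted without strand, so reads from there cannot be told apart by strand.

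Among the factors that load or start the helicase, 2 stood next to Mcm3 or Mcm6. Cdc6, which loads the helicase at origins, had a log2 fold change of −3.62 ± 0.28 and Gins2, a subunit of the active helicase, −3.10 ± 0.20, although 70.7% of the exon bases of Gins2 lie opposite to Gse1. Cdt1, the partner of Cdc6, was at −2.33 and E2f1, the activator of the class, at −2.54. The genes of nucleotide supply and of the clamp differed less. Rrm1, the large subunit of ribonucleotide reductase, was at 171 and 167 CPM in endothelial and at 61.6, 50.8 and 64.5 CPM in motor neuron libraries (log2 fold change −1.52 ± 0.14), whereas its partner Rrm2 was at −2.56. Pcna was at −1.69, Tyms, the thymidylate synthase, at −1.83, and the E cyclins Ccne1 and Ccne2 at −1.69 and −1.91.

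The mitosis genes lay close together, from −4.16 to −2.40. Birc5, encoding survivin of the chromosome passenger complex, was at 82.6 and 52.9 CPM in endothelial libraries and at 6.06, 1.82 and 3.39 CPM in motor neuron libraries, a log2 fold change of −4.16 ± 0.45 (adjusted p = 1.74e-05). Mki67, the Ki-67 antigen of dividing cells, was at 293 and 241 CPM against 23.8, 7.49 and 17.6 CPM (−4.03 ± 0.42). Cdk1, the mitotic kinase, was at 110 and 79.1 CPM against 9.90, 2.50 and 5.36 CPM (−3.99 ± 0.46). In all 3 genes motor neuron batch 1 was the highest and batch 2 the lowest of the motor neuron libraries, and none reached an endothelial library. The passenger kinase Aurkb was at −4.02, the checkpoint kinase Bub1 at −3.83, the B cyclins Ccnb1 and Ccnb2 at −3.82 and −3.81, and the spindle factors Nusap1, Kif11 and Tpx2 at −3.73, −3.66 and −3.53. At the other end stood Aurka, the centrosome kinase, at −2.94 ± 0.23 and Hmgb2, a chromatin protein, at 32.0 and 30.7 CPM against 6.75, 4.99 and 6.07 CPM (−2.40 ± 0.32). Of Hmgb2, 10 annotated pseudogenes match its exons over at least 400 bases at 90% identity or more, and of Ccnb1, 4, so reads of these 2 genes may be split with copies. In all 13 of the 40 genes have such a copy, among them Mcm7 (Gm5487, 97.7% identity over 2157 bases), Pcna, Cdc6, Cdc20, Tyms and Plk1.

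All 3 D cyclins were lower in motor neurons. Ccnd2 was at 176 and 182 CPM in wild-type endothelial libraries and at 17.3, 9.03 and 10.6 CPM in motor neuron libraries (log2 fold change −3.86 ± 0.28, adjusted p = 1.02e-06). Ccnd3 was at 133 and 127 CPM against 11.5, 10.4 and 12.2 CPM (−3.51 ± 0.13, adjusted p = 2.44e-08), the tightest of the 3. Ccnd1 was at 113 and 133 CPM against 29.5, 15.3 and 23.9 CPM (−2.42 ± 0.28). Each group stayed apart from the other, and motor neuron batch 2 was again the lowest motor neuron library for all 3.

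The inhibitors did not follow the other classes. Cdkn1b was at 134 and 116 CPM in wild-type endothelial libraries and at 100.3, 99.6 and 99.5 CPM in motor neuron libraries. The motor neuron libraries were nearly equal and all lower, but the log2 fold change of −0.33 ± 0.14 missed the threshold (adjusted p = 0.0547). It passed with DESeq2 (adjusted p = 0.0464), with RLE scaling (0.0449), with library totals only (0.0213) and without knockout endothelial batch 3, which shares the fit (0.0135). In knockout embryos it was called, at −0.55 ± 0.12 (adjusted p = 0.00244). Cdkn1a was at 15.5 and 13.1 CPM against 9.49, 14.3 and 8.54 CPM, with overlapping groups, and was not called in wild-type (−0.41 ± 0.30, adjusted p = 0.248) or knockout embryos (−0.41 ± 0.27, adjusted p = 0.205).

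**Figure D2:**
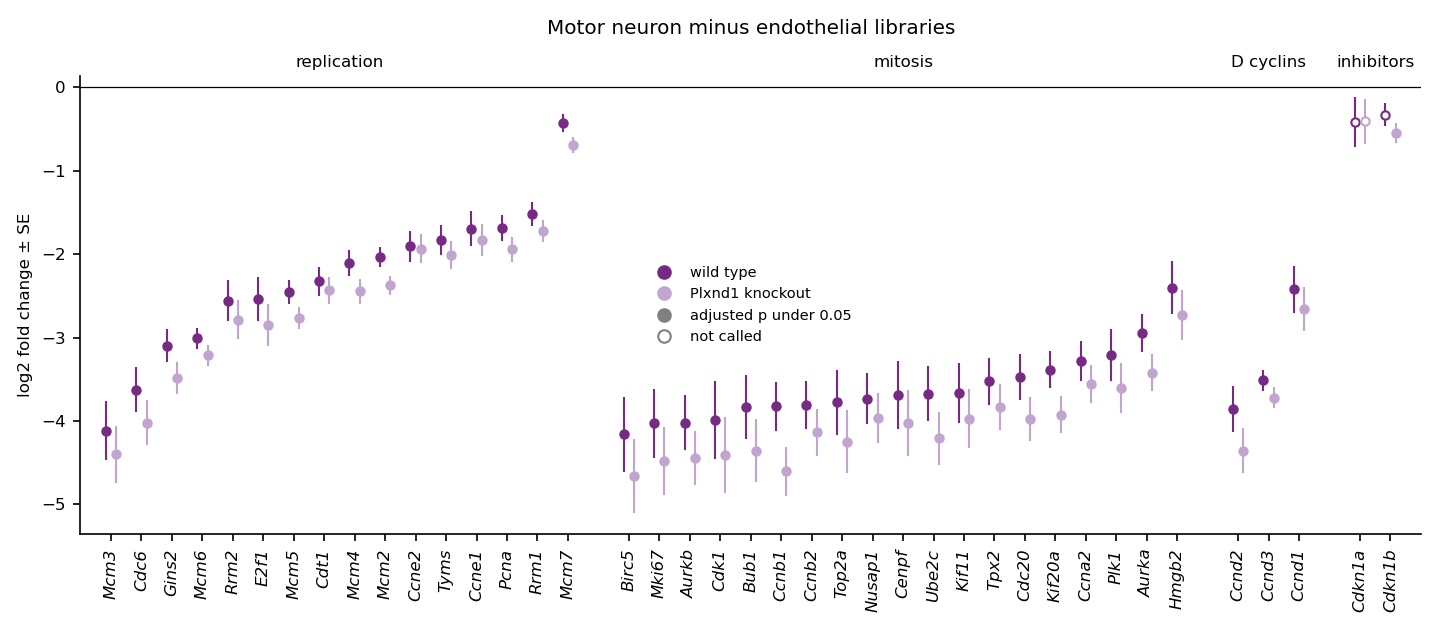
Log2 fold change (motor neuron minus endothelial libraries, bars ± SE) of each of the 40 genes, ordered within its class, in wild-type (dark) and knockout embryos (light); filled points have an adjusted p under 0.05. Mcm7 at −0.43 and −0.69 stands apart from the other replication genes, and the inhibitors lie nearest to 0.

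The part of other cells in the motor neuron values was not tested. Among motor neuron libraries the mitosis sum was 210, 93.8 and 148 CPM in wild-type batches 1 to 3 and 137, 88.1 and 167 CPM in knockout batches 1 to 3. The 9 neural progenitor markers, all detected, summed to 206, 157 and 183 CPM and to 181, 144 and 168 CPM in the same order, so batch 2 was lowest for both sums in both genotypes. The 7 mesenchyme markers (58 to 154 CPM over the 6 libraries) were also lowest in batch 2. As a share of the wild-type endothelial libraries, the motor neuron libraries held 30.5% of the progenitor sum, 1.10% of the mesenchyme sum and 0.553% of the erythroid sum.

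Other cell cycle genes were taken from 4 lists of the same pathways. As background, 6517 of all 19266 genes tested (33.8%) were lower in wild-type motor neurons and 5967 were higher. Of 35 other replication genes 34 were lower in wild-type motor neurons and none higher, and of 36 other mitosis genes 35 were lower. The most lowered were E2f8, an E2F repressor (−4.09), Tk1, thymidine kinase (−3.97), and Mcm10, an origin factor (−3.97), and among mitosis genes Ndc80 of the kinetochore (−4.21), the kinesin Kif2c (−4.13) and Hmmr of the spindle (−4.08). Of 28 genes of G1 and cell cycle control 22 were lower and 4 higher. Cdk2 (−4.22), Cdk6 (−3.90) and the mitotic activator Foxm1 (−3.42) were the most lowered, and Mycn (1.91), the pocket protein gene Rb1 (0.87) and Fzr1, which activates the anaphase-promoting complex in G1 (0.53), were the most raised. Of 15 tested inhibitors and exit genes 8 were lower and 2 higher. The INK4 inhibitors Cdkn2b (−4.91) and Cdkn2c (−4.34) and the stress gene Gadd45b (−3.79) were lower, whereas the INK4 inhibitor Cdkn2d (1.02) and the atypical cyclin Ccng2 (0.91) were higher. In knockout embryos the counts were 34 of 35, 36 of 36, 23 lower with 4 higher, and 9 lower with 2 higher. There 6806 of all 19266 genes (35.3%) were lower and 6448 were higher.

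Knockout and wild-type libraries were then compared within each cell type to ask whether loss of the receptor goes with a change in proliferation genes. In endothelial cells none of the 40 genes passed the threshold, nor did any of the 18209 genes tested (0% called). At an unadjusted p under 0.05, 431 genes overall and 2 of the 40 passed. DESeq2 called 34 genes and edgeR with the batch as a block called 180, and neither called a member. All 40 genes had a log2 fold change above 0, against 48% of all genes, with medians of 0.11 for replication and 0.20 for mitosis and −0.01 for all genes. That common sign did not hold in every fit. Without wild-type batch 3, 27 of 40 were above 0 (51% of all genes), without knockout batch 1 or 2 34 and 33, and with the batch as a block 33, and the genes are not independent of each other. Within batches, the mitosis genes were higher in the knockout for 18 of 19 genes in batch 1 and 15 of 19 in batch 3. The replication genes were higher for 12 of 16 and 8 of 16. The share of all genes higher within a batch was not counted, so these counts have no background.

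The largest difference in endothelial cells was that of Ccnd2. It was at 176 and 182 CPM in wild-type batches 1 and 3 and at 198, 289 and 263 CPM in knockout batches 1 to 3. Every knockout library was above every wild-type library, by a log2 fold change of 0.49 ± 0.17 (unadjusted p = 0.0236, adjusted p = 0.999). Cenpf, a kinetochore protein, was at 92.2 and 88.9 CPM against 105, 109 and 115 CPM, also without overlap (0.28 ± 0.09, unadjusted p = 0.0181, adjusted p = 0.999). Mki67 was at 293 and 241 CPM against 320, 304 and 311 CPM (0.23 ± 0.11) and Mcm2 at 121 and 131 CPM against 135, 146 and 146 CPM (0.18 ± 0.09), neither of which passed. Ccnd2 lies on chromosome 6, as Plxnd1 does, at a distance of 11.1 Mb, and so do Cdkn1b (18.9 Mb) and Mcm2 (27.1 Mb). Whether this position has a part in their values was not tested. The 7 mesenchyme markers summed to 8630 to 8824 CPM in wild-type and 8786 to 10383 CPM in knockout endothelial libraries, and the 10 endothelial markers to 727 to 1127 CPM and 508 to 923 CPM. The summed 7 cartilage and muscle markers stood apart, at 266 and 428 CPM in the wild-type libraries against 456, 631 and 651 CPM in the knockout ones. Of these 7 markers, 4 averaged under 1 CPM in wild-type and 3 in knockout endothelial libraries. Schwann cell and crest markers (6 genes) were at 67.8 and 139 CPM against 107, 193 and 171 CPM. The part of these cells in the value of Ccnd2 or other members was not tested.

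In motor neurons 2 of 16695 genes passed (0.012% called) and none was a member. At an unadjusted p under 0.05, 190 genes overall passed and 1 of the 40, Cdkn1b, with 100.3, 99.6 and 99.5 CPM in the wild-type libraries and 84.8, 78.9 and 96.4 CPM in the knockout ones (−0.20 ± 0.09, unadjusted p = 0.0454, adjusted p = 0.9997). With DESeq2 4 genes were called and with the batch as a block 6, again no member. Of the 40 genes 37 had a log2 fold change below 0, against 48.7% of all genes, with medians of −0.14 for replication, −0.25 for mitosis and 0.00 for all genes. Leaving out single libraries changed this. Without wild-type batch 1, 24 of 40 were above 0 and the mitosis median was 0.11, and without knockout batch 2, 16 were above 0 and the median was −0.00378. Without knockout batch 1, the library with liver markers, 38 of 40 were below 0 and the mitosis median was −0.30. Within batches the mitosis median was −0.53 in batch 1, −0.04 in batch 2 and 0.13 in batch 3, so it changed sign between batches. In the same order 0, 6 and 14 of 19 genes were higher in the knockout, and the share of all genes was not counted. Ccnb1, the most negative member, was at 3.31, 1.63 and 1.88 CPM in wild-type and at 1.54, 1.17 and 1.85 CPM in knockout libraries, which overlap (−0.59 ± 0.34).

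Whether the knockout difference differed between the cell types was tested directly. None of the 40 genes and none of 19266 genes passed (0% called by edgeR, 352 genes and 0 members at an unadjusted p under 0.05, and 1 gene by DESeq2, not a member). The endothelial difference exceeded the motor neuron difference in 39 of 40 genes (46.6% of all genes above 0), with medians of 0.26 for replication and 0.42 for mitosis against −0.02 for all genes. The largest was that of Ccnb1 at 0.78 ± 0.40, and Mcm2 stood at 0.34 ± 0.16 and Ccnd2 at 0.50 ± 0.36. Without wild-type motor neuron batch 1, 34 of 40 genes were above 0, with medians of 0.20 for replication and 0.08 for mitosis. No gene of the 4 other lists was called in any of these 3 comparisons. Those with the smallest p were Pola1 (0.34), Cdca3 (0.31), E2f7 (0.29) and Cdkn1c (0.20) in endothelial cells, Dtl (−0.45), Ncapd2 (0.29), Skp2 (−0.20) and Ccng1 (0.15) in motor neurons, and Dtl (0.66), Gas2l3 (0.65), Skp2 (0.32) and Cdkn1c (0.18) for the difference.

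**Figure D3:**
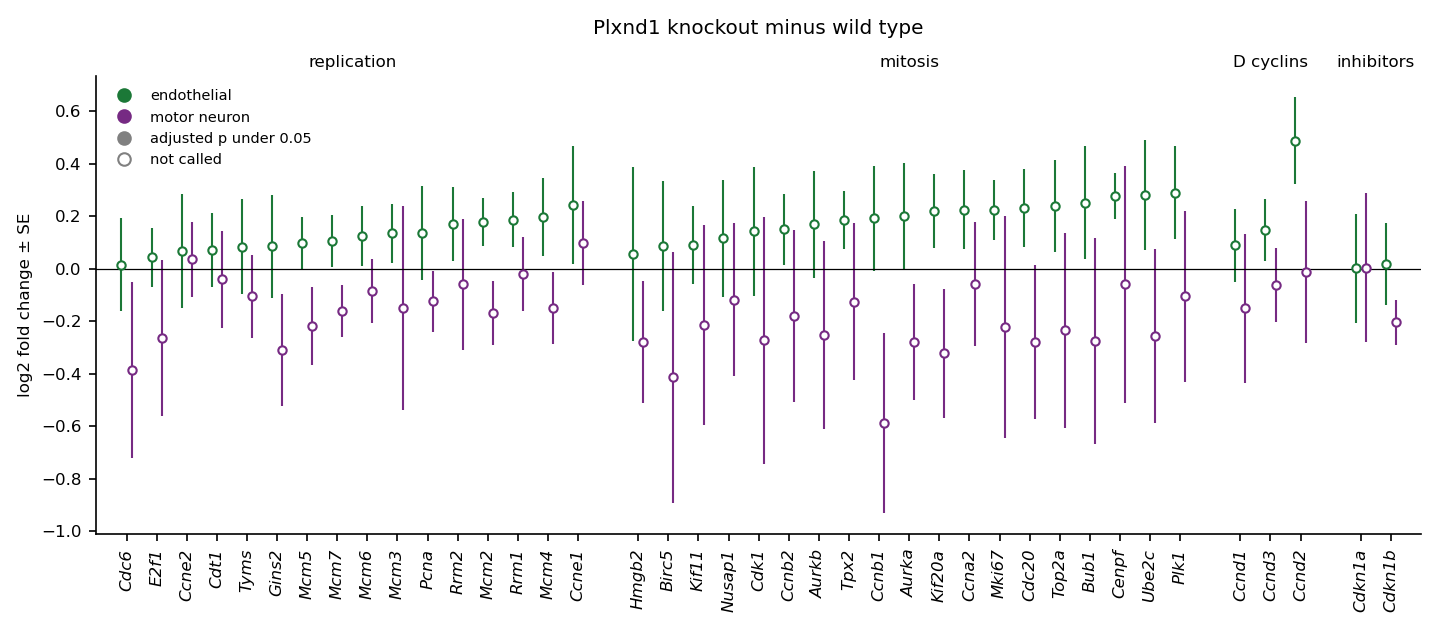
Log2 fold change (Plxnd1 knockout minus wild type, bars ± SE) of each of the 40 genes in endothelial (green) and motor neuron libraries (purple), ordered within its class; open points did not pass an adjusted p of 0.05. Every point is open, and Ccnd2 at 0.49 in endothelial cells and Ccnb1 at −0.59 in motor neurons are the farthest from 0.

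The spinal and meningeal libraries ask whether endothelial cells inside the cord differ in proliferation genes from those around it. Of the 40 genes 15 were lower in spinal libraries (23% of all 16213 genes tested), 3 were higher (24.8% of all genes) and 22 were not called. In 10 members all 5 spinal libraries lay below all 5 meningeal libraries (17.4% of all genes) and in 1, Cdkn1a, above them (19.2% of all genes). Replication genes were lower in 8 of 16 cases (median −0.32), mitosis genes in 5 of 19 (median −0.19), and the median of all genes was 0.01. Summed, replication genes stood in spinal libraries at 79.9% of the meningeal level, mitosis genes at 90.02%, D cyclins at 68.3% and inhibitors at 182%.

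In the replication class the 8 called genes were Gins2, Ccne1, Tyms, Cdc6, Cdt1, Mcm5, Mcm2 and E2f1. Gins2 was at 21.7, 28.8, 23.7, 25.4 and 29.1 CPM in spinal batches 1 to 5 and at 63.8, 55.4, 48.1, 53.1 and 53.1 CPM in meningeal batches 1 to 5. All spinal values were below all meningeal ones, by a log2 fold change of −1.09 ± 0.11 (adjusted p = 7.61e-06). Ccne1, a cyclin E that drives entry into S phase, was at 17.7, 19.1, 17.4, 17.8 and 16.1 CPM in spinal libraries and 34.9, 30.1, 32.9, 33.03 and 35.7 CPM in meningeal ones. Its groups were also apart (−0.92 ± 0.10, adjusted p = 7.49e-06), while Ccne2 was not called (−0.58 ± 0.24, adjusted p = 0.0639), although it passed with the batch as a block (0.0147). Tyms (−0.80 ± 0.12), Cdc6 (−0.65 ± 0.10) and Cdt1 (−0.43 ± 0.12) were lower without overlap of the groups, although Cdt1 lost its call in batches 1 to 3 alone (adjusted p = 0.0902).

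Only some of the helicase subunits were called. Mcm5 was at 87.7, 99.6, 93.9, 123 and 119 CPM in spinal libraries and 170, 203, 192, 177 and 166 CPM in meningeal ones (−0.80 ± 0.11, adjusted p = 9.53e-05). Mcm2 was lower with overlapping groups (−0.34 ± 0.10, adjusted p = 0.0162) and missed the threshold without the filter on low counts (0.0514). Mcm3, Mcm4, Mcm6 and Mcm7 were not called, with log2 fold changes of −0.20, −0.19, −0.20 and −0.20, nor were Pcna (−0.23), Rrm1 (−0.24) or Rrm2 (0.09). E2f1 was lower by a small margin (−0.31 ± 0.11, adjusted p = 0.0357) and lost its call in 8 of 19 alternatives, among them leaving out meningeal batch 4 (0.103) or 5 (0.0797) or spinal batch 1 (0.0616) or 2 (0.0686).

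Most mitosis genes did not differ between the regions by this test. Mki67 was at 439, 562, 411, 382 and 388 CPM in spinal and at 276, 690, 388, 480 and 415 CPM in meningeal libraries, and Top2a at 396, 474, 457, 389 and 399 CPM against 344, 445, 318, 493 and 470 CPM. In both genes the spinal values lie inside the meningeal range, with log2 fold changes of −0.04 ± 0.21 and 0.03 ± 0.14. Cenpf (0.10), Bub1 (0.07), Ccna2 (−0.02), Kif11 (−0.03) and Tpx2 (−0.03) were likewise near 0. Birc5 and Kif20a were the mitosis genes whose groups lay fully apart. Birc5 was at 56.6, 68.2, 58.6, 57.6 and 59.3 CPM in spinal libraries against 109, 94.9, 81.3, 105 and 94.3 CPM in meningeal libraries (−0.69 ± 0.10, adjusted p = 8.82e-05). Kif20a, a kinesin of the cleavage furrow, was at 85.9, 111, 92.6, 111 and 105 CPM against 125, 152, 114, 167 and 168 CPM (−0.52 ± 0.13, adjusted p = 0.00499). Cdc20 (−0.40 ± 0.12, adjusted p = 0.0159), Ccnb2 (−0.31 ± 0.11, adjusted p = 0.0353) and Hmgb2 (−0.37 ± 0.14, adjusted p = 0.0435) were lower with overlapping groups. With the batch as a block, Ccnb2 (adjusted p = 0.0515) and Hmgb2 (0.0693) were lost and Cdk1 (0.0348), Aurka (0.0289) and the ubiquitin-conjugating enzyme gene Ube2c (0.0359) were gained. Cdk1 and Aurka were each called in 11 of 19 alternatives and Nusap1 and Ube2c in 5, so the count of mitosis genes depends on the fit. Over all classes, DESeq2 called 21 members lower (4087 of all 16213 genes) and RLE scaling 18 (3835 of all 16213 genes). Leaving out 1 library also ended the Ccnb2 call (meningeal batch 4 at 0.0856 or 5 at 0.0753) and the Hmgb2 call in 7 of 10 cases (0.0585 to 0.0832).

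**Figure D4:**
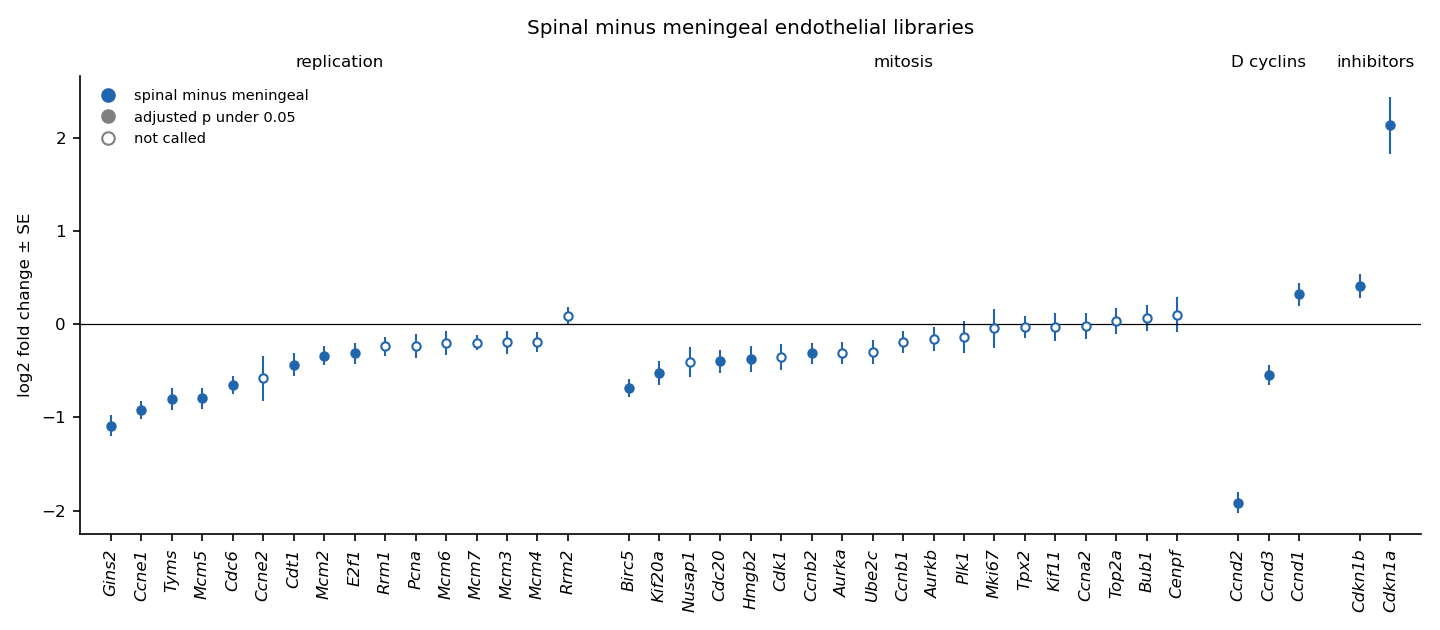
Log2 fold change (spinal minus meningeal libraries, bars ± SE) of each of the 40 genes, ordered within its class; filled points have an adjusted p under 0.05. Ccnd2 at −1.91 and Cdkn1a at 2.13 are the extremes, and most mitosis genes lie between −0.4 and 0.1.

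The D cyclins, which answer to outside signals in G1, did not all differ in 1 direction between the regions. Ccnd2 (chromosome 6, 127125162 to 127151060, minus strand, GRCm38) was at 72.0, 49.6, 56.0, 54.0 and 53.9 CPM in spinal and at 205, 231, 229, 190 and 219 CPM in meningeal libraries. The groups were far apart, 3.76-fold lower in spinal libraries (log2 fold change −1.91 ± 0.12, adjusted p = 1.49e-07), the lowest of the 40 genes. Ccnd3 was at 150, 161, 123, 165 and 155 CPM against 216, 193, 250, 218 and 223 CPM, also apart (−0.54 ± 0.11, adjusted p = 0.00113). Ccnd1 went the other way, at 177, 201, 159, 217 and 224 CPM in spinal libraries and 149, 137, 143, 187 and 167 CPM in meningeal ones, with overlap (0.32 ± 0.12, adjusted p = 0.0483). It was higher in the spinal library of all 5 batches, by 0.14 to 0.55 on the log2 scale, but the call was lost in 11 of 19 alternatives, among them leaving out meningeal batch 1 (0.121), 2 (0.143), 3 (0.115) or 5 (0.0668) or spinal batch 1 (0.0535), 2 (0.0854), 4 (0.106) or 5 (0.121). Per kilobase, Ccnd2 was the lowest D cyclin in both regions, at 8.51 CPM per kb in spinal and 32.0 in meningeal libraries. Ccnd1, at 52.3 CPM per kb in spinal libraries (42.4 to 59.98), overlapped there with Ccnd3 at 61.7 (50.2 to 67.5), whereas in meningeal libraries it was below it, at 41.9 (36.7 to 49.9) against 89.8 (78.7 to 102).

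Both inhibitors were higher in spinal libraries. Cdkn1a (chromosome 17, 29090979 to 29100727, plus strand), which encodes p21, was at 45.6, 41.3, 30.7, 79.4 and 75.7 CPM in spinal and at 10.6, 6.74, 13.9, 18.6 and 12.2 CPM in meningeal libraries. Every spinal library was above every meningeal one, and the whole-cord batches 4 and 5 were the highest. The log2 fold change was 2.13 ± 0.31 (adjusted p = 9.67e-05), the highest of the 40 genes, or 4.40-fold from the mean CPM. Per kilobase Cdkn1a rose from 4.57 to 20.1 CPM and there overlapped with Cdkn1b at 19.0. Cdkn1b, which encodes p27, was at 94.2, 110, 82.4, 68.2 and 76.5 CPM against 75.3, 60.6, 61.1, 60.4 and 67.9 CPM, with overlap (0.41 ± 0.13, adjusted p = 0.0204). Its highest values were in ventral batches 1 to 3, and its call was lost without meningeal batch 2 (0.0711) or 3 (0.0514), without spinal batch 1 (0.054) or 2 (0.0521), and in batches 4 and 5 alone (0.160).

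**Figure D5:**
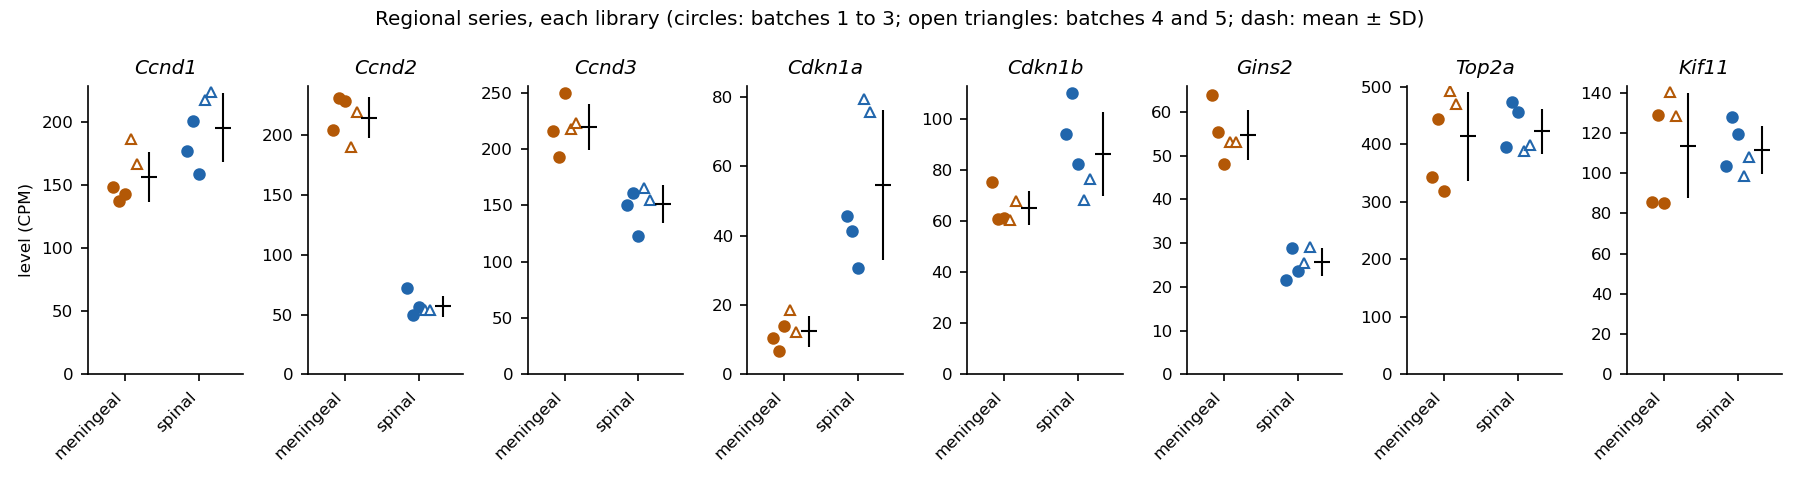
Level (CPM) of 8 genes in each meningeal (orange) and spinal library (blue), with batches 1 to 3 as circles, batches 4 and 5 as open triangles, and the mean ± SD of 5 libraries beside them. Ccnd2, Ccnd3 and Gins2 are lower and Cdkn1a higher in every spinal library, while Top2a and Kif11 overlap fully.

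Batches 4 and 5, from whole cord, and batches 1 to 3, from ventral cord, were also taken separately. In batches 4 and 5 alone 32 of the 40 genes were lower in spinal libraries (26.6% of all genes) and 2 higher (4454 of all 16341 genes). In batches 1 to 3 alone 13 were lower (22.1% of all genes) and 2 higher (3462 of all 16464 genes). Per batch, the spinal library was lower for 12, 13, 9, 19 and 19 of the 19 mitosis genes in batches 1 to 5, with median log2 differences of −0.35, −0.21, 0.08, −0.34 and −0.25. Replication medians were −0.47, −0.22, −0.34, −0.48 and −0.33, negative in every batch. The share of all genes lower within a batch was not counted, so the counts per batch have no background. The difference between the 2 sets of batches was tested directly, by a test chosen after seeing the data: 98 of 17901 genes were called (0.547%) and none of the 40, of which 26 were below 0 (54.1% of all genes). The count over all genes is unstable: it ran from 0 to 1190 when 1 library was left out (1190 without spinal batch 2, 0 without spinal batch 4 or 5 or meningeal batch 5), and was 1321 with DESeq2, 1780 without the filter and 0 with batches 4 and 5 summed. The lowest adjusted p was that of Ccna2, cyclin A2 (−0.69, adjusted p = 0.092). Batches 4 and 5 resemble each other closely, with median chi-square values per gene of 1.39 and 1.40 for their pairs (genes with a summed count of at least 20), against 2.23 to 12.3 for all other pairs within a group and 0.455 under sampling noise alone. Their spread may therefore be smaller than that of separate samples, and a count from these batches alone is not on the same footing as one from batches 1 to 3. With the libraries of batches 4 and 5 summed, 12 members were lower (3398 of all 16367 genes) and 2 higher (3679 of all genes). Dissection and batch cannot be told apart.

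Markers of other cells moved with the region. The sum of the 7 mesenchyme markers was higher in meningeal libraries (8697 to 11618 CPM against 729 to 1380 CPM). Sums of the 10 endothelial, 7 mural and 9 neural progenitor markers were higher in spinal libraries, the last at 628 to 1256 CPM against 177 to 242 CPM. Every marker of these 4 lists had counts in both groups, but 5 of the 9 neural progenitor markers averaged under 1 CPM in meningeal libraries. The 7 pan-neuronal markers were also higher in spinal libraries (628 to 1461 CPM against 187 to 547 CPM). In spinal batches 4 and 5, where Cdkn1a was highest, several marker sums were also the highest of the spinal libraries. The 9 macrophage and microglia markers summed there to 2957 and 2923 CPM, against 982 to 1469 CPM in spinal batches 1 to 3. Their sum was 1276 to 2432 CPM in meningeal libraries. The 10 endothelial markers summed to 3610 and 3484 CPM, against 1625 to 3125 CPM in spinal batches 1 to 3. Erythroid markers were at 44663 and 46855 CPM, against 4537 to 33436 CPM, and ranged from 4537 to 54992 CPM over the 10 libraries. The mesenchyme and neural progenitor sums were lowest in spinal batches 4 and 5. The part of these cells in the differences of Ccnd2, Cdkn1a or any other member was not tested.

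For the 4 other lists the shares over all genes, 23% lower and 24.8% higher, are the background. Of 35 other replication genes 23 were lower in spinal libraries and none higher, led by Dscc1 of cohesion (−0.82), the chromatin assembly gene Chaf1b (−0.81) and Rpa2, which binds single-stranded DNA (−0.74). Of 36 other mitosis genes 6 were lower and 4 higher, both below those shares. The Cdk partners Cks1b (−0.78) and Cks2 (−0.59) and Psrc1 of the spindle (−0.69) were lower, and Gas2l3 (0.64), Ect2 (0.41) and Prc1 (0.38), which act in cytokinesis, were higher. Of 28 control genes 6 were lower and 6 higher, both near the background. Cdk7 (−0.69), Cdk4 (−0.57) and Skp2, which targets p27 for destruction (−0.50), were the most lowered, and Rb1 (1.21), Mycn (0.83) and Cdk6 (0.50) the most raised. Of 15 tested inhibitors and exit genes 4 were higher, again near the background, among them Gadd45g (0.95), Btg1 (0.67) and Ccng2 (0.63). The 1 that was lower, Cdkn1c, which encodes the p57 inhibitor, was at 265 ± 25.7 CPM in spinal libraries against 652 ± 44.8 CPM in meningeal ones (SD, n = 5, log2 fold change −1.30 ± 0.11), on the opposite side to the inhibitors Cdkn1a and Cdkn1b.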

How the data were processed

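RNA-seq counts per gene were deposited for 22 libraries. Per the file headers, the authors counted reads with featureCounts 1.6.4 on exons of the GENCODE M22 annotation (mm10), summed by gene name. The knockout series was counted as single reads without strand (setting 0) and the regional series as read pairs on the reverse strand (setting 2), so no test crosses the series. Per the labels' protocols the libraries were stranded. STAR 2.5.3a and Trimmomatic 0.39 are named in the submitters' processing notes. One wild-type endothelial file was left out as a copy.

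From these deposited counts, edgeR 4.0.16 (R 4.3.3) was run with a filterByExpr minimum of 10 counts, TMM scaling, the quasi-likelihood F-test and Benjamini-Hochberg adjustment over all genes tested, at 0.05. Cell type contrasts and the interaction came from 1 fit of 4 groups, and the other contrasts from their own groups. CPM were taken from edgeR with TMM factors, within each series. The check on simulated data changed 200 genes by a fold of 2. It recovered 35.5% of them for motor neurons against endothelial cells in wild type. For the knockout it recovered 34.5% (endothelial) and 51.5% (motor neurons), for the interaction 6.5% and for the regions 61.5%. The 200 were drawn at random from all genes kept by the filter, at any level, and the other genes were left without a difference. Changes of that size were therefore often missed in that simulation, most of all for the interaction, and smaller differences can be missed too. Recovery was not measured for the members, whose precision is given by the SE beside a value. A gene without a call is not thereby shown to be equal. Alternatives were DESeq2 1.42.0, other scalings, no filter, each library left out, subsets of batches and the batch as a block. Batch numbers in the titles were used to pair the libraries. Deviations from the group means of same-numbered libraries correlated at 0.52 and 0.61 (endothelial) and at 0.30, 0.39 and 0.31 (motor neurons). The 2 endothelial values share 1 wild-type difference, since the deviations of 2 libraries mirror each other. Regional values were −0.30, −0.02, 0.33, 0.18 and 0.04. Regional batches 1 and 2 correlated at 0.22 and 0.34 when crossed, against their numbering. Pairing by number is therefore unsure in that series.

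All 40 members are named. Of the other lists, up to 3 called genes at each end, or the gene with the smallest p, are named. The members and lists were chosen with earlier results of these data known.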

Additional observations from a re-analysis of the deposited data

Results flagged for a closer look

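In each group of 5 regional libraries, each of the 40 genes was checked for a library set apart from the other 4 (80 sets, of which chance flags about 1 in 20). In 5 sets 1 library stood apart as the highest. Spinal batch 2 did so for Mcm4 at 163 CPM (others 122 to 131), for Ccne2 at 37.6 CPM (others 17.2 to 20.6) and for Birc5 at 68.2 CPM (others 56.6 to 59.3). Spinal batch 1 did so for Ccnd2 at 72.0 CPM (others 49.6 to 56.0), and meningeal batch 2 for Cdc6 at 37.7 CPM (others 32.9 to 34.1). None of these Birc5, Ccnd2 or Cdc6 libraries reached the other region.

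For 3 genes the spinal minus meningeal difference was positive in every batch from ventral cord and negative in both batches from whole cord. Genes with 1 sign in batches 1 to 3 and the other in batches 4 and 5 were flagged, in either direction. The share of all genes with such signs was not counted, so this count has no background and may be no more than chance gives. The means of the whole-cord batches were lower by −0.38 on the log2 scale for Rrm2 (−0.13 against 0.25), by −0.56 for Top2a (−0.29 against 0.27) and by −0.44 for Bub1 (−0.20 against 0.24). The edgeR test of that difference did not call Rrm2 (adjusted p = 0.161), Top2a (0.177) or Bub1 (0.310). For Top2a and Bub1 the pattern rests on pairing by number. With batches 1 and 2 crossed, spinal batch 1 lay below meningeal batch 2 for Top2a (396 against 445 CPM) and Bub1 (80.3 against 94.1 CPM). For Rrm2 it does not rest on the pairing. In batches 1 to 3 spinal libraries were at 88.6 to 100.8 CPM and meningeal libraries at 78.4 to 84.9 CPM. In batches 4 and 5 they were at 92.4 to 95.0 CPM and 100.3 to 105.0 CPM.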

How the results depend on the processing

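Values were recomputed for all 40 genes between cell types, 26 between regions and 4 to 9 in each other comparison, and for medians and shares. Of these 2205 counted as unchanged under an alternative. For a gene that means it kept its direction and its side of the threshold. A median or share counted as unchanged when it moved by less than the SD between libraries, even across 0. Genes lost a call in 45 cases, gained a call in 27 and changed sign in 15, and 3 medians or shares moved further. The counts for motor neurons against endothelial cells were 38 or 39 genes lower in wild type and 39 in the knockout under every alternative, and no member was called for the knockout in either cell type or for the interaction. Over all 40 genes and 19 alternatives, the regional comparison gained 59 calls (18 genes) and lost 45 (7 genes). For the regions, leaving out 1 library gave 12 to 23 members lower, the highest without meningeal batch 3. It gave 1 to 3 higher, with 1 without meningeal batch 2 or 3 or spinal batch 1 or 2. Over all genes those fits called 3395 to 3999 lower and 3566 to 3907 higher, of 16407 to 16553 tested. Batches 4 and 5 alone gave 32 members lower (4339 of all 16341 genes). The difference between the batch sets had 1 member higher (Mcm5) and 1 lower (Ccna2) with DESeq2, and 1 lower without the filter, against none. With the batch as a block, pairing libraries, 17 members were lower (3457 of all 16213 genes) and 3 higher (3879 of all genes). Apart from the 6 genes named above no call of a member changed. Blocking turned the sign of Ccnd2 in motor neurons (0.014) and Mki67 between regions (0.0034), and left 33 of 40 genes above 0 for the knockout in endothelial cells (40 without it) and 37 for the interaction (39), none called. With numbers 1 and 2 crossed, 17 members were lower (3847 of all 16213 genes) and 3 higher (4210 of all genes). Leaving out 1 library moved the knockout difference in motor neurons from −0.75 to 0.11 for Birc5, −0.58 to 0.15 for Mki67 and −0.19 to 0.31 for Ccnd2, each positive without wild-type batch 1, and the last 2 also without knockout batch 2 (0.03 and 0.17). The interaction of Birc5 ranged from −0.018 (without wild-type motor neuron batch 1) to 0.85. Between regions Mki67 ranged from −0.22 to 0.12 (without meningeal batch 2) and was 0.027 in batches 1 to 3 alone. Top2a ranged from −0.0737 (without meningeal batch 3) to 0.10, also negative without meningeal batch 1 or spinal batch 2 or 3, and was −0.30 in batches 4 and 5 alone. Replication and mitosis medians moved to −0.45 and −0.37 in batches 4 and 5, and the share of spinal counts on members from 0.457% to 0.479% without haemoglobin and mitochondrial genes. The causes were not tested. Every member had at least 26 counts in every library, and groups of 2 to 5 libraries limit the precision.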
